A study of Mus musculus with 6 samples.

Results

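Meg3, Rian and Mirg are the long noncoding RNAs of the imprinted Dlk1-Dio3 domain on mouse chromosome 12. They were picked by gene name from the authors' deposited table, and they are 3 of its 709 genes. The table holds only genes that the authors called as different between NS-DADm and WT muscles, and the choice of these 3 was made with their values known. All values of the genotype contrast below are therefore a description, and no test of them is used as support.

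RNA-seq was performed on tibialis anterior (TA) muscles, a mostly fast-twitch muscle of the lower leg, from 3 NS-DADm and 3 WT mice, with 1 library per mouse. All 6 mice were labelled C57BL/6 and were 21 weeks old, and the lines had a C57BL/6J background. NS-DADm mice carry whole-body knock-in point mutations in the deacetylase-activating domain of corepressors that switch on the histone deacetylase HDAC3. WT mice were age-matched and carried none of these mutations. Since the mutations are present in every cell of the body, a change inside the muscle fibers cannot be told apart from one that reaches the muscle from other organs. RNA levels do not show a point mutation, so the genotype labels could not be checked on the mutated genes. Of 12 myofiber marker genes 1 was listed, the giant sarcomere gene Ttn, at 321672 to 424956 normalized counts in NS-DADm libraries and 247705 to 275842 in WT libraries.

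Values are normalized counts, that is, read counts divided by 1 size factor per library. A single read corresponded to 0.905 to 1.21 normalized counts, depending on the library, and dividing by this step gave whole reads within 0.01 for 100% of the values. Few listed genes have low values, on which such a step can be checked most firmly, so the read numbers and intervals below are inferred from this step. The listed genes held 1047804 to 1411470 reads per library, which is part of each library and not its depth.

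The Dlk1-Dio3 domain is read differently from the chromosomes inherited from the mother and the father. The maternal copy gives the noncoding RNAs Meg3, Rian and Mirg, all from the same strand, and the paternal copy gives the protein-coding genes Dlk1, Rtl1 and Dio3. A control region between Dlk1 and Meg3, methylated on the paternal copy, sets this pattern. Rian is the host of many C/D box snoRNAs and Mirg of a large cluster of miRNAs, which are cut out of the long transcripts. In mouse muscle the transcription factor MEF2A is known to activate the miRNAs of this domain, and in sheep a mutation of the domain underlies the callipyge muscle overgrowth.

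On GRCm38, GENCODE M21 places Meg3 (ENSMUSG00000021268.17) on the plus strand of chromosome 12 from 109541001 to 109571726, with 11 transcript models. Rian (ENSMUSG00000097451.10) follows from 109603940 to 109661716, with 20 models. Mirg (ENSMUSG00000097391.8) lies from 109729764 to 109749460, with 12 models. The gap between Meg3 and Rian is 32.2 kb and that between Rian and Mirg 68.0 kb. With these gaps, the stretch from the start of Meg3 to the end of Mirg is 208 kb of the 828 kb from Dlk1 to Dio3. The RefSeq table used here holds 58 hairpin entries of miRNAs between Dlk1 and Dio3. Of these entries, 1 lies in the span of Meg3, 3 in that of Rian and 14 in that of Mirg, while 13 snoRNA genes on the same strand lie in Rian. The remaining entries lie outside the 3 spans, many of them between Meg3 and Rian, around Rtl1, and upstream of Mirg.

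**Figure D1:**
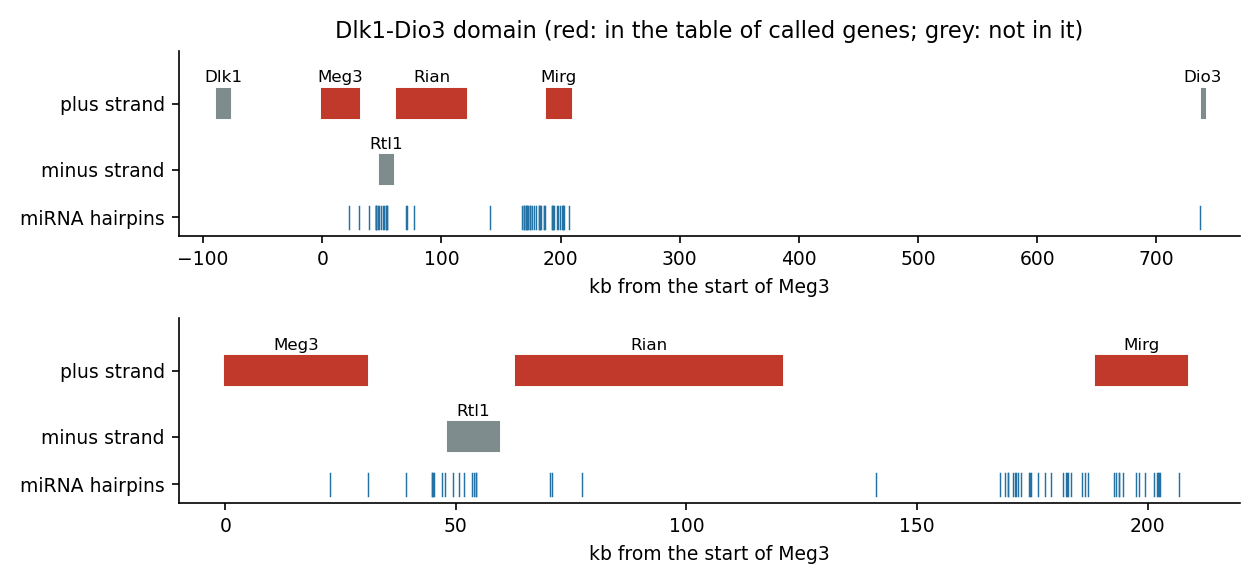
Map of the Dlk1-Dio3 domain in kb from the start of Meg3, the whole domain above and the part from Meg3 to Mirg below. Boxes are genes by strand, red where the gene is in the table and grey where it is not, and blue ticks are the miRNA hairpin entries of RefSeq. Meg3, Rian and Mirg follow one another on the plus strand, and Dlk1, Rtl1 and Dio3 are not in the table.

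The start of each gene is shown because these windows differ in kind. Each sequence is RefSeq (GRCm38.p6), plus strand, 5′ to 3′, from 250 bases before to 50 bases after an annotated start. For Meg3 the window is chr12:109540746-109541045. Capitals mark the motifs found.
Meg3: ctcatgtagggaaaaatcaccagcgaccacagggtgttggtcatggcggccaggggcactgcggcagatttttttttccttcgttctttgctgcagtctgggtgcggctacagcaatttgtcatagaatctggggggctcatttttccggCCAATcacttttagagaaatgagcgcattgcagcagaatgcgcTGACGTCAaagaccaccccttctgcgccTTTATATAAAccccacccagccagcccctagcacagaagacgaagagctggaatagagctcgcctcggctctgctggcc
In all, 5 motifs were searched on both strands in 32851 windows of this length. CCAAT, the core of the NF-Y site, began 100 bases before the Meg3 start and occurs in 37.4% of windows. TGACGTCA, the full cyclic AMP response element, began 57 bases before it and occurs in 1.79% of windows. TATAAA began 25 bases before it and, on the other strand and overlapping the first match, at 29 bases, and occurs in 13.6% of windows. AGGTCA, the core letters of many nuclear receptor sites, occurs in 16.3% of windows, and the MEF2 consensus in 3.19%. Neither was in this Meg3 window, while the window of a further RefSeq start of Meg3, not printed, holds AGGTCA 141 bases before that start. A match is a description of letters and not a bound site.

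The window of Rian is chr12:109603695-109603994. None of the motifs searched was in it, so it is all in lower case.
Rian: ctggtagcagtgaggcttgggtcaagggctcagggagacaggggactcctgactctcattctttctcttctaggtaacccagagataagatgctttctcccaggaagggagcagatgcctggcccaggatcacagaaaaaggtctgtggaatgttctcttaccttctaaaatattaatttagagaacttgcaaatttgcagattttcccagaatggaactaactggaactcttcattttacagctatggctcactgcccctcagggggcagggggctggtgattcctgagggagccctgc
The Rian window holds 0 CpG dinucleotides, against 13 in the Meg3 window and a median of 7 over all windows.

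The RefSeq start of Mirg lies downstream of the GENCODE start of the gene, inside the miRNA cluster. Its window is chr12:109734731-109735030, with 10 CpG dinucleotides. Capitals mark the mature sequences that the RefSeq entries used here hold for it, those of miR-668-5p, miR-668-3p and miR-485-3p. These entries lack the other arm of miR-485, so lower case does not show that a stretch lies outside a mature miRNA.
Mirg: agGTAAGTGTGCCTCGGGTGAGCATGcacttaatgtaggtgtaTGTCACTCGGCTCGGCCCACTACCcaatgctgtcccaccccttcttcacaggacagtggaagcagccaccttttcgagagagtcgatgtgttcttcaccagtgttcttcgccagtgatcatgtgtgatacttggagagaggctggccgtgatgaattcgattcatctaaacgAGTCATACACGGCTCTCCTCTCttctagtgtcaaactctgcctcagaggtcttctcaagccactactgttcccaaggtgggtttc
Of the motifs searched, CCAAT alone was found in the Mirg window, 184 bases before its start.

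The miRNAs themselves were not measured, since the table counts reads per gene and lists no miRNA of the domain. A few mature sequences are given to show what the long RNAs carry. They are RefSeq entries (GRCm38.p6, plus strand), 5′ to 3′, with the seed (bases 2 to 8) in capitals. The first is from the Meg3 span and the other lines of this group are from Rian.
miR-770-3p: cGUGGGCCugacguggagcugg
miR-341-3p: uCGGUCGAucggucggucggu
miR-370-3p: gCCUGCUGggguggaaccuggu
The others are from the Mirg span.
miR-382-5p: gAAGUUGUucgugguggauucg
miR-134-5p: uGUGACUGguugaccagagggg
miR-485-3p: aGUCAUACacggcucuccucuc
miR-154-3p: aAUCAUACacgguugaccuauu
miR-409-3p: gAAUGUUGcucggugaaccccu
miR-369-3p: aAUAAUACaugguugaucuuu
miR-410-3p: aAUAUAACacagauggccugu
miR-453: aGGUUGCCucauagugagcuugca
miR-496a-5p: aGGUUGCCcaugguguguuca
Within the 3 spans, RefSeq as used here holds 35 mature miRNAs with 34 different seeds. For miR-1906 in Meg3 it holds no hairpin entry. The only seed found more than once is that of miR-453 and miR-496a-5p, both in Mirg.

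Meg3, the first gene of the maternal transcripts and a nuclear noncoding RNA also known as Gtl2, was lower in NS-DADm muscles. Its normalized counts were 121, 126 and 159 in the NS-DADm libraries, against 348, 400 and 443 in the WT libraries. The groups did not overlap, and the highest NS-DADm library was 2.18-fold below the lowest WT library. The mean was 136 ± 20.7 in NS-DADm and 397 ± 47.6 in WT (SD, n = 3 each), which is 34.2% of the WT level or 2.93-fold lower. On the log2(normalized count + 1) scale the difference was -1.55 (standard error 0.16, limma). These values rest on 115 to 132 reads per NS-DADm library and 384 to 461 reads per WT library.

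Rian, the snoRNA host also known as Meg8, was the lowest of the 3 relative to WT. Its normalized counts were 53.9, 43.2 and 101 in the NS-DADm libraries, against 422, 472 and 476 in the WT libraries. All 3 NS-DADm libraries lay far below the WT libraries, by at least 4.16-fold, and the third NS-DADm library stood at more of the WT level than the others. The mean was 66.2 ± 31.0 in NS-DADm and 457 ± 30.3 in WT (SD, n = 3 each), 14.5% of the WT level or 6.91-fold lower. The log2 difference was -2.86 (standard error 0.26, limma). The NS-DADm libraries held 51, 45 and 84 Rian reads, against 466, 519 and 496 in the WT libraries.

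Spread within NS-DADm was wide for Rian, with a coefficient of variation of 46.8% in NS-DADm and 6.64% in WT. Leaving out each library was planned for the log2 differences, and for the ratio of group means the omission of the third NS-DADm library was added after seeing the data. Without it, Rian was 9.41-fold lower and Meg3 3.21-fold lower. That library also had the highest Meg3 of its group, but not the highest Mirg.

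Mirg, the miRNA host also known as Meg9, was the least abundant of the 3. Its normalized counts were 8.45, 6.72 and 7.24 in the NS-DADm libraries, against 24.4, 17.3 and 35.5 in the WT libraries. The groups did not overlap, and the lowest WT library was 2.05-fold above the highest NS-DADm library. The mean was 7.47 ± 0.89 in NS-DADm and 25.8 ± 9.19 in WT (SD, n = 3 each), 29.0% of the WT level or 3.45-fold lower. The log2 difference was -1.61 (standard error 0.38, limma), smaller in size than the log2 of that fold, in part because the added 1 weighs on so low a count.

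Few reads stand behind Mirg. It had 8, 7 and 6 reads in the NS-DADm libraries, against 27, 19 and 37 in the WT libraries. The exact 95% Poisson interval of 8 reads is 3.45 to 15.8, and that of 19 reads is 11.4 to 29.7, so the intervals of the closest libraries overlap. These intervals cover counting error only. The table's lowest mean over the 6 libraries was 12.2 normalized counts, and Mirg, at 16.6, ranked 21 from the bottom of the 709 genes.

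**Figure D2:**
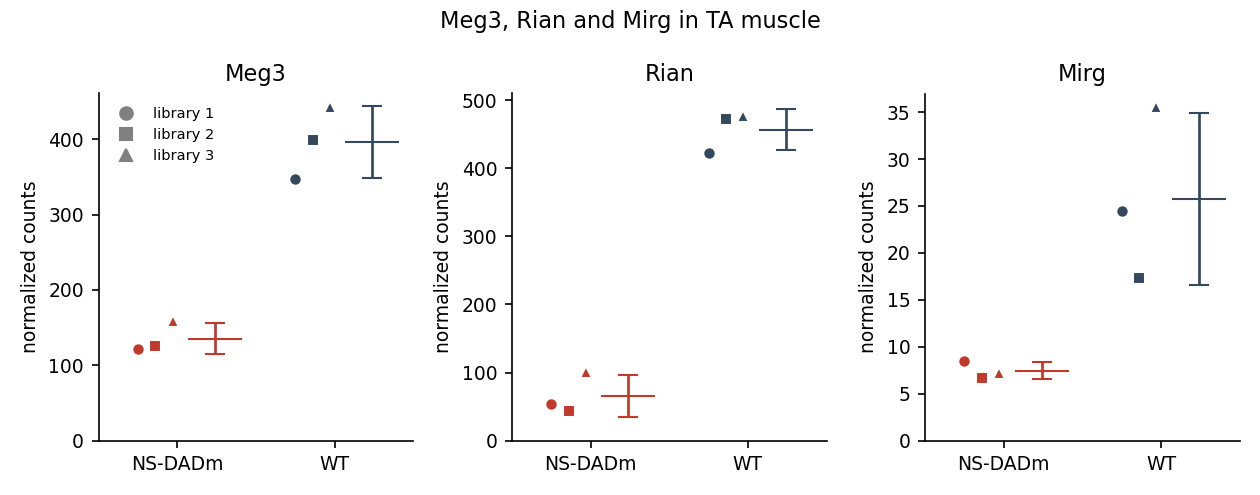
Normalized counts of Meg3, Rian and Mirg in each library (points, shape by library number), with the mean and SD of NS-DADm and WT (n = 3 each) as a bar with whiskers. The vertical axes start at 0 and differ between panels. In each panel all NS-DADm libraries lie below all WT libraries, and the NS-DADm means are 136, 66.2 and 7.47.

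In bulk tissue, fewer cells of a type and less RNA per cell cannot be told apart, so these levels do not say whether the RNAs were lower in each cell. Counts per gene also do not separate the maternal from the paternal copy. Meg3 overlaps the lincRNA Gm26906 on the opposite strand and Rian overlaps the lincRNA Gm26945 on its own strand. Gm27596 and Gm27300, annotated as misc_RNA, overlap Meg3, and Gm27350 overlaps Rian, each on the same strand. Reads in the same-strand stretches are uncertain whatever the strand setting. The sources used here do not say whether the counting used strand, so reads where Meg3 and Gm26906 overlap are uncertain as well.

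The 3 RNAs did not fall to the same degree. The ratio of Rian to Meg3 within a library does not depend on how libraries are scaled, since the size factor cancels. It was 0.44, 0.34 and 0.64 in the NS-DADm libraries, against 1.21, 1.18 and 1.08 in the WT libraries. Rian thus had fewer counts than Meg3 in every NS-DADm library and more in every WT library. The mean ratio was 0.47 ± 0.15 in NS-DADm and 1.16 ± 0.07 in WT (SD, n = 3 each), 2.44-fold lower in NS-DADm, and the NS-DADm mean was 0.39 without NS-DADm library 3.

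The ratio of Mirg to Meg3 showed no such separation. It was 0.0696, 0.0534 and 0.0455 in the NS-DADm libraries, against 0.0703, 0.0433 and 0.0803 in the WT libraries. The groups overlapped, and the mean of 0.056 ± 0.012 in NS-DADm lay within 1 SD of the 0.065 ± 0.019 in WT (n = 3 each). With 6 to 8 Mirg reads per NS-DADm library, a modest difference in this ratio was not detectable at this depth.

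Mirg relative to Rian lay between these patterns. The ratio was 0.157, 0.156 and 0.0714 in the NS-DADm libraries, against 0.0579, 0.0366 and 0.0746 in the WT libraries. The first and second NS-DADm libraries were above all WT libraries, while the third, with its higher Rian, fell inside the WT range.

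**Figure D3:**
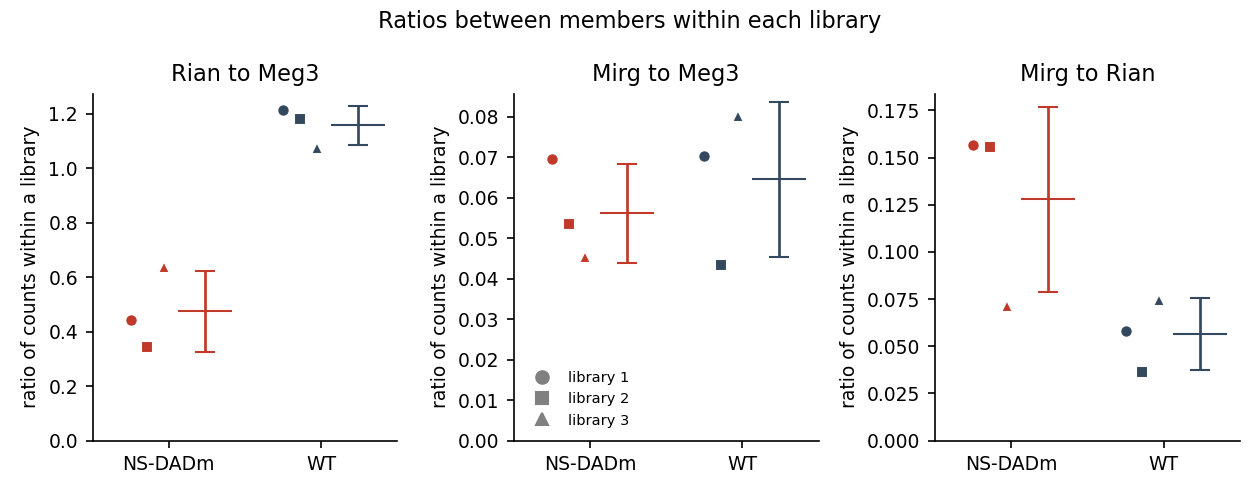
Ratios of normalized counts between members within each library (points, shape by library number), with mean and SD of NS-DADm and WT (n = 3 each). Only the ratio of Rian to Meg3 has NS-DADm libraries (0.34 to 0.64) fully apart from WT libraries (1.08 to 1.21).

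Levels of different genes were compared per kb of merged exons in GENCODE M21, which come to 18.1 kb for Meg3, 18.2 kb for Rian and 7.29 kb for Mirg. In NS-DADm the order was Meg3 at 7.49 ± 1.15, Rian at 3.63 ± 1.70 and Mirg at 1.02 ± 0.12 normalized counts per kb (SD, n = 3). In WT it was Rian at 25.1 ± 1.66, Meg3 at 21.9 ± 2.63 and Mirg at 3.53 ± 1.26 normalized counts per kb (SD, n = 3). Across libraries, Meg3 and Rian had overlapping values per kb in WT and separate ones in NS-DADm. Within each WT library Rian was above Meg3, with per kb ratios of 1.20, 1.17 and 1.07. Mirg was below both in every library. Many short models are merged in these lengths, and which isoforms the muscle makes is not known from gene counts, so the order of Meg3 and Rian in WT is uncertain.

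Within the table, all 3 RNAs passed the limma test as lower in NS-DADm (Benjamini-Hochberg adjusted p under 0.05), as did 49.1% of the 709 genes. In either direction, 100% of the listed genes passed this test. All 3 RNAs also had non-overlapping groups in the lower direction, as did 48.4% of the listed genes. Counting both directions, 97.9% of the listed genes had groups that did not overlap. The authors' selection used these very libraries, so nothing is read from the members' counts.

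In size, Rian ranked 6 and Meg3 46 among the 348 lower genes by the ratio of group means, and Mirg 30. The median lower gene was 1.66-fold lower. Among the 50 lower genes with a mean of 200 to 350 normalized counts, where Meg3 and Rian lie, the median was 1.62-fold and Rian had the largest fold. Below a mean of 50, where Mirg lies, the 40 lower genes had a median of 3.08-fold and none was under 1.92-fold, so that smaller differences at this abundance are not in the table. The fold of Mirg was thus near the middle for genes as rare as it, and those of Meg3 and Rian were large for theirs.

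**Figure D4:**
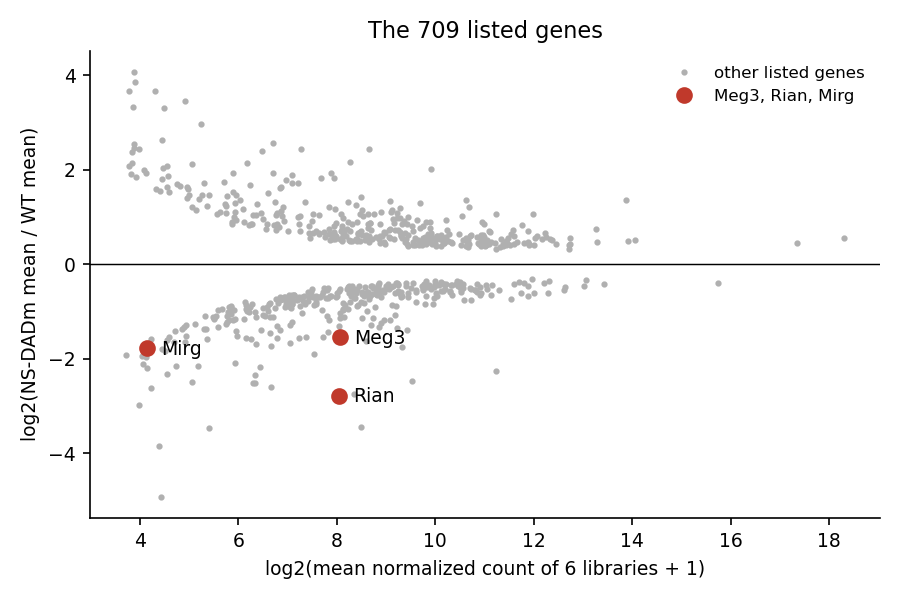
Log2 of the mean in NS-DADm over the mean in WT (vertical) against log2 of the mean normalized count plus 1 (horizontal) for the 709 listed genes, with Meg3, Rian and Mirg in red. The empty band around 0 widens at low counts because the table holds called genes only, and Rian lies below its neighbors of like abundance, with 6.91-fold lower counts.

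The 3 RNAs were the only listed genes of their neighborhood. GENCODE M21 has 156 genes within 1 Mb of them, 16 of them protein-coding, and 3 of the 156 were in the table. Dlk1, a Notch-related protein of precursor cells, Rtl1, a retrotransposon-derived protein needed in the placenta and in muscle, and Dio3, the deiodinase that inactivates thyroid hormone, were 0 of 3 listed. Of 29 genes flanking the domain, such as Begain, Wars, Yy1 and Ckb, 0 were listed. The share of all annotated genes that the table lists was not computed, so nothing is read from these counts. An unlisted gene has no value here, and was either not tested or not called by the authors, so it cannot be said to be unchanged. The nearest listed genes on chromosome 12, named after their values were seen, were Igha, an antibody heavy chain gene 3.51 Mb away, and Lgmn, the lysosomal protease legumain 7.10 Mb away on the Dlk1 side. Both were higher in NS-DADm, Lgmn 1.97-fold. Of the other 19 listed genes of chromosome 12, 4 were lower and 15 higher, that is, 21.1% lower, against 49.1% of all listed genes.

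Of 20 long noncoding RNAs outside the domain, 19 had a symbol in the annotation used and 3 were in the table. In limma 3 were higher and 0 lower. Of the 709 listed genes 100% passed limma and 361 were higher by mean, so nothing is read from this count. H19, an imprinted RNA read from the maternal copy, had normalized counts of 17876, 19222 and 22647 in NS-DADm libraries, against 14253, 13099 and 14665 in WT libraries, 1.42-fold higher. Its log2 difference was 0.50 (standard error 0.11), 0.44 after median ratio rescaling and -0.07 after quantile normalization of the listed genes, which sets the values of the most abundant genes by their rank. Meg3, Rian and Mirg were lower under both of these scalings. Kcnq1ot1, an imprinted RNA read from the paternal copy, averaged 348 ± 52.4 normalized counts in NS-DADm and 200 ± 10.2 in WT (SD, n = 3 each), 1.74-fold higher. Malat1, a nuclear noncoding RNA, was 2.55-fold higher. Kcnq1ot1 and Malat1 were also higher after quantile normalization, by 0.87 and 0.84 on the log2 scale.

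Further gene lists were of imprint control, of MEF2 factors and class IIa HDACs, of the HDAC3 corepressor complex, and of miRNA maturation. Their genes were mostly not listed, and whether they act on the domain in these muscles was not tested. Of 18 factors that keep or erase imprints, such as the zinc finger protein Zfp57, its partner Trim28 and the DNA methyltransferases, 1 was listed. This was Tet2, an enzyme that oxidizes methylated DNA, with 568, 817 and 887 normalized counts in NS-DADm libraries, against 579, 469 and 326 in WT libraries. Its groups overlapped, and its mean was 1.66-fold higher in NS-DADm. Of 8 MEF2 factors and class IIa HDACs, 0 were listed. Of 6 genes of the HDAC3 corepressor complex, Tbl1xr1, a subunit of it, was listed and was 1.75-fold higher in NS-DADm. Of 9 genes of miRNA maturation and action, Ago4, an Argonaute protein that binds mature miRNAs, was listed, at 129, 139 and 123 normalized counts in NS-DADm libraries, against 248, 255 and 209 in WT libraries. It was 1.82-fold lower, with no overlap between the groups.

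Markers of other cell types gave 4 listed genes of 64 on 9 lists, and 6 lists had none. Of 10 satellite cell markers (muscle stem cells), Fgfr4, a fibroblast growth factor receptor, was listed, with 15.8, 15.4 and 20.5 normalized counts in NS-DADm libraries, against 58.0, 37.3 and 30.7 in WT libraries. Its mean was 2.44-fold lower, so it moved in the direction of the 3 RNAs, while Pax7, which defines these cells, was not listed. Of 8 macrophage markers, Mrc1 alone was listed and was 2.04-fold higher. Of 5 plasma cell markers, 2 were listed, the antibody genes Igkc and Igha. These averaged 39.1 ± 19.8 and 26.1 ± 12.9 normalized counts in NS-DADm, against 3.95 ± 3.15 and 1.81 ± 3.14 in WT (SD, n = 3 each). The part of these cells in the levels of Meg3, Rian and Mirg was not tested.

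The genes whose pattern was most like that of the 3 RNAs were sought by Pearson correlation, over the 6 libraries, of log2(normalized count + 1) with the mean centered profile of the 3. This is a description over 6 libraries that fall into 2 genotypes, and 212 of the other 706 genes had a correlation above 0.9. Among the 345 other genes that were lower in NS-DADm, the median correlation was 0.92, so such values were ordinary there. The highest were Fam234a (0.999), Stbd1 (0.996), 6530402F18Rik (0.996), Mllt11 (0.995) and Gpat4 (0.994). Stbd1, a glycogen-binding protein, had 220, 158 and 291 normalized counts in NS-DADm libraries, against 1057, 1230 and 1446 in WT libraries. Each of the named genes, like Meg3 and Rian, had its highest NS-DADm value in the third library. They were picked by correlation with the members, which favors this shape. Gpat4, an enzyme that starts glycerolipid synthesis, was 1.31-fold lower, with 630, 622 and 680 normalized counts in NS-DADm libraries, against 818, 821 and 898 in WT libraries.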

How the data were processed

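TA muscle RNA of 3 NS-DADm and 3 WT mice was sequenced. The paper's methods give STAR as the aligner. In the submitters' processing notes TopHat2 (2.1.0) stands beside HTSeq and DESeq2 (1.8.2), for mm10, and which aligner made the table is unsettled. Annotation release, strand setting and sequencing depth: not given in the sources used here.

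In their deposited table, the authors list the genes they called with DESeq2, each with a signal per library, the read count divided by that library's size factor. Further columns deposited by the authors hold group means and their own comparison of the genotypes, as log2 fold changes, ratios, p-values and adjusted p-values, and were not used.

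Values as log2(normalized count + 1) were compared with limma 3.58.1 in R 4.3.3, with a mean-variance trend, and two-sided p-values were adjusted by Benjamini-Hochberg across all 709 genes of the table. The step was tested on simulated data in which most genes were unchanged. The table holds called genes only, so that simulation does not cover the authors' selection. No p-value is given for Meg3, Rian or Mirg. Named genes were these 3, listed genes of the gene lists, listed genes within 1 Mb, and the 5 genes most correlated with the members. Lgmn falls outside this rule and was named after its values were seen. The members and lists were chosen with earlier results of these data known. GENCODE M21 (GRCm38) gave positions and exon lengths, with 706 of 709 identifiers found once versions were removed, and sequences came from RefSeq (GRCm38.p6), where all 3 members matched. Other steps used pandas 2.3.3 and scipy 1.17.1. Alternatives covered pseudocounts, a filter, scaling, the trend, the replicate block and leaving out each library. The mutated genes are not reported here.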

Additional observations from a re-analysis of the deposited data

How the results depend on the processing

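For Meg3, Rian and Mirg, 38 alternative log2 differences were computed, and all moved from the values above by less than 1 SD of the libraries, with no change of direction. Pseudocount 5 gave the smallest Mirg difference, -1.26, and quantile normalization of the listed genes the largest, -1.88. With any 1 library left out, the difference was -1.67 to -1.46 for Meg3, -3.21 to -2.61 for Rian and -1.85 to -1.35 for Mirg. The filter at a mean of 50 removed Mirg. With the replicate number as a block the differences were -1.55, -2.86 and -1.61 and 348 genes were called lower, as without it. The deviations from the genotype means had correlations of -0.15, 0.15 and 0.05 between libraries with the same number, and the mice were therefore not treated as pairs. Counts of lower genes lay between 308 and 348. The authors' selection used the same 6 libraries, which favors such stability. Count tests with edgeR and DESeq2, planned as alternatives, were not run on these normalized values. Mirg is limited by its depth.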
